A study of Mus musculus with 12 samples.

Results

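The libraries described here are the 3 resting ones among 12 RNA-seq libraries of type 1 conventional dendritic cells (cDC1) of mouse inguinal lymph nodes. They are all the libraries labelled NoTumor-NoCD40, that is, from mice with no tumor and no CD40 agonist. The other 9 libraries, 3 in each of the groups NoTumor-CD40, Tumor-NoCD40 and Tumor-CD40, were not used. Every value below is thus a level within the NoTumor-NoCD40 libraries and none is a comparison of groups. Resting is used here as a name of this group and not as a measured state of the cells. CD40 agonist means an activator of the receptor CD40, and the tumors of the series were KPC, a mouse model of pancreatic cancer, placed under the skin. The labels give no strain, sex or age, no number of mice per library and no gates of the cell sort, and they do not say whether the libraries came from separate mice, so the spread between them may be technical in part. Their sample titles begin with 3 different numbers that look like collection dates, and no other library of the series begins with that of library 3.

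cDC1 are rare dendritic cells that take up dying cells and present the antigens of those cells on MHC class I to CD8 T cells, a process called cross-presentation. They arise under the transcription factors IRF8 and BATF3 and are recognised by XCR1, the receptor for the chemokine XCL1, and by CLEC9A, which binds actin filaments exposed by dead cells. A lymph node holds resident cDC1 that arrive from the blood as precursors and migratory cDC1 that arrive from the skin, and the migratory ones carry a program of maturation with the chemokine receptor CCR7.

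The defining markers were present in each library. Levels are given in TPM (transcripts per 1000000), which corrects for transcript length and has a fixed total per library, summed over the transcripts of a gene and listed in the order of libraries 1, 2 and 3. Xcr1 (chromosome 9, 123852315 to 123862029, minus strand, GRCm38 with GENCODE M21 genes) stood at 77.4, 124 and 119.8 TPM, or 107 ± 25.7 (SD, n = 3). Clec9a (chromosome 6, 129408862 to 129424763, plus strand) stood at 130.3, 197 and 259 TPM, or 196 ± 64.5 (SD, n = 3). Library 1 was the lowest for both receptors. On the scale of fixed-length TPM, explained further on, Clec9a had 96.2, 136 and 176 and Xcr1 182, 278 and 281, and library 1 was again the lowest for both.

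Batf3, the AP-1 factor that cDC1 need to develop (chromosome 1, 191097847 to 191108945, plus strand), stood at 65.6, 74.6 and 75.9 TPM, or 72.1 ± 5.6 (SD, n = 3). Irf8, which activates Batf3 and is kept active by it (chromosome 8, 120736358 to 120756694, plus strand), stood at 384, 466 and 615 TPM, or 489 ± 117 (SD, n = 3). In TPM Irf8 was the most abundant of the 4 and Batf3 the least. By fixed-length TPM Batf3 had 185, 197 and 201, above Clec9a in each library, so Clec9a was the least abundant there. Batf3 had the smallest relative spread, with a coefficient of variation of 7.77% against 33% for Clec9a.

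A gene is called expressed below where it reached 1 TPM in every library, and below the threshold where it was under 1 TPM in every library. Of the 21896 protein-coding genes in the tables, 43.8% were expressed, and counts of members are to be read against that share. All 30 genes of a list of cDC1 markers were expressed, with a median of 81 TPM against 11.7 TPM over the 9600 expressed protein-coding genes. The highest were Naaa, a lysosomal amidase, with 745 ± 159 TPM and Ppt1, a lysosomal thioesterase, with 622 ± 125 TPM (SD, n = 3). Cd8a, the CD8 alpha chain that resident cDC1 carry, had 105, 159 and 128 TPM, and Itgae, the integrin chain CD103 of migratory cDC1, had 10.5, 17.6 and 17 TPM. Both genes were thus measured in each library, which does not show that both subsets were present. Itgae was lowest in library 1, where Ccr7, given below, was highest. T cell RNA was measured as well, as given below, and its part in Cd8a and Itgae was not tested. The lowest of the list was Clnk, an adaptor of immune receptors, with 6.93 ± 3.15 TPM. All 18 genes of a list shared by white blood cells were also expressed, led by Lsp1, an actin-binding protein of leukocytes, with 2044 ± 449.9 TPM and Cd52, a small anchored glycoprotein, with 1737 ± 219 TPM.

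**Figure D1:**
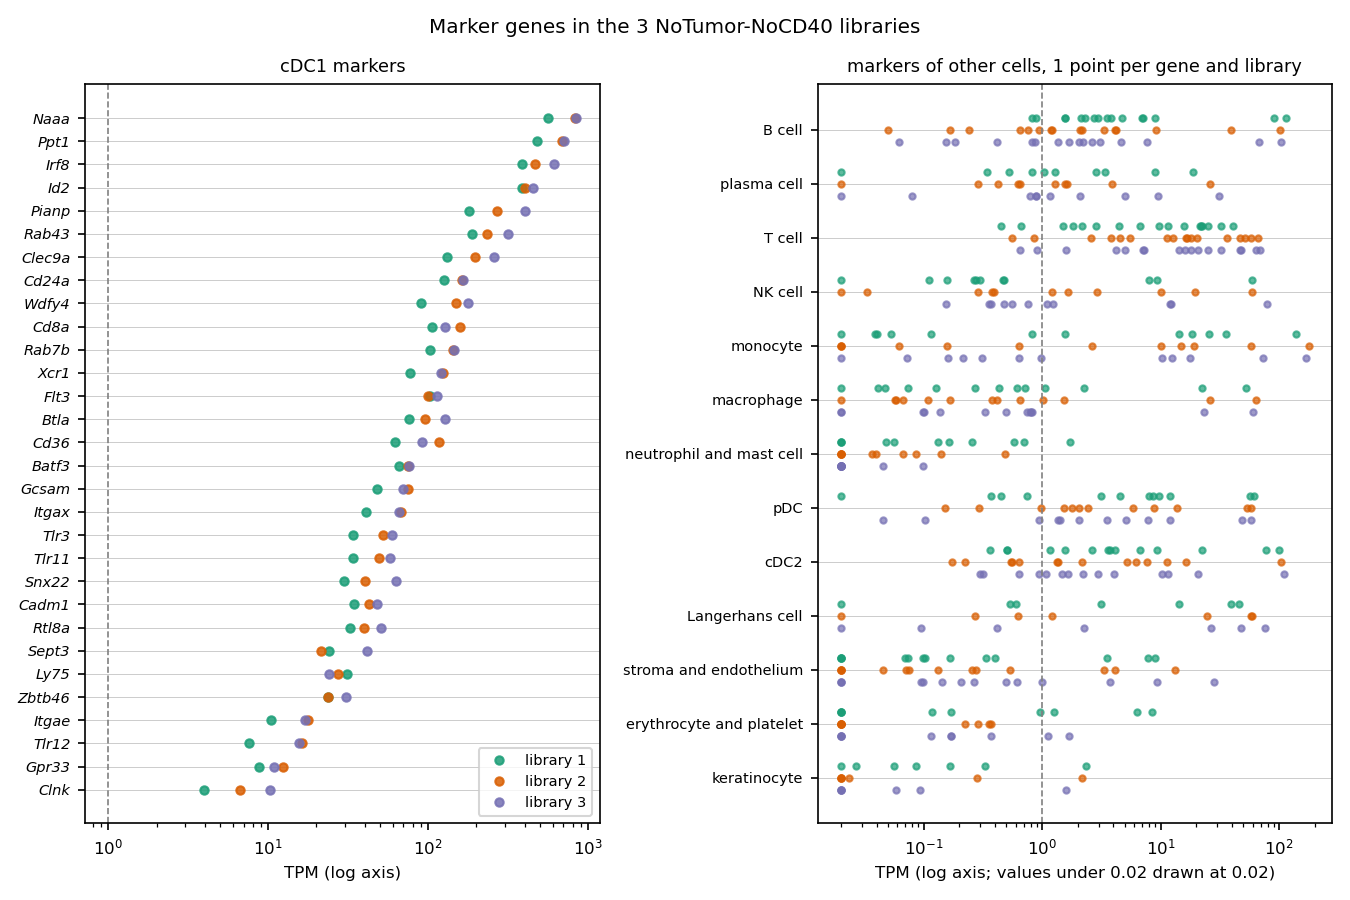
TPM (log axis, 1 point per gene and library, dashed line at 1 TPM) of the 30 cDC1 markers, gene by gene, and of the markers of other cells, list by list, with values under 0.02 TPM drawn at 0.02. Every cDC1 marker lies right of the line in all 3 libraries, while the markers of other cells lie on both sides of it.

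Markers of other cells were read in the same way. Of 152 such markers, 61 were expressed, or 40.1%, near the 43.8% of all protein-coding genes. In every library 63 were below 1 TPM, and 10 of those had 0 counts throughout. The other 28 passed 1 TPM in some libraries only. In bulk RNA a low level can come from few cells with much of an RNA or from many cells with little, and these cannot be told apart. Several markers are shared with cDC1 or their subsets, such as Cd207 and Kit, and their part in the results below was not tested. Other lists hold 4 of the T cell markers, 4 of the B cell, 5 of the monocyte, 9 of the macrophage and 12 of the cDC2 markers. The T cell list was the most complete of these lists, with 14 of 17 expressed. Trac, the constant part of the T cell receptor alpha chain, had 25.1, 51.7 and 64.5 TPM, and Cd3e, a signalling chain of that receptor, had 6.68, 18.2 and 18.2 TPM, both lowest in library 1. The T cell list summed to 223, 373 and 382 TPM in libraries 1, 2 and 3, and Foxp3, the factor of regulatory T cells, was below the threshold.

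Of the B cell markers 9 of 16 were expressed. Among the 9, 5 were highest in library 1, against 23.4% of all expressed protein-coding genes, and 3 were lowest there, against 48.2%. The list summed to 256, 171 and 200.1 TPM, most of it from the antibody chains Ighm, with 90.4, 102 and 104 TPM, and Igkc, with 115, 39.6 and 68.2 TPM. Cd79a, a signalling chain of the B cell receptor, had 7.14, 1.18 and 1.35 TPM and was highest in library 1. Plasma cell markers were expressed for 4 of 10 and NK cell markers for 3 of 11. Klrk1, a receptor on NK cells and CD8 T cells with several transcripts, had 66 ± 11.5 TPM (SD, n = 3), whereas the NK cell genes Ncr1, Eomes and Klrb1c were below the threshold.

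Markers of other myeloid cells varied by list. In the neutrophil and mast cell list 0 of 11 were expressed, and the list summed to 3.65, 0.855 and 0.145 TPM in libraries 1, 2 and 3. The macrophage list had 2 of 13 expressed, Cd68 and Apoe, and the macrophage genes Mrc1, Cd163 and Siglec1 were below the threshold. In the monocyte list 5 of 12 were expressed, led by Lyz2, a lysozyme, with 162 ± 21.1 TPM (SD, n = 3), while Fcgr1, Vcan and F13a1 were below the threshold. Of the cDC2 list, the markers of the other main lineage of conventional dendritic cells, 9 of 14 were expressed. The cDC2 list summed to 235, 158 and 168 TPM, led by the lectin Clec12a with 97.4 ± 17.1 TPM (SD, n = 3). Next was the adhesion molecule Esam with 101, 11.3 and 4.02 TPM, highest in library 1, of which 12.9% lay in protein-coding transcripts. Its transcript Esam-206, not a protein-coding one, held 93.5, 7.49 and 0 TPM from only 57.6, 4.44 and 0 counts. The higher sum of the list in library 1 rested on that transcript. Sirpa, a surface marker of cDC2, had 2.15 ± 1.27 TPM, and Itgam and Cx3cr1 were below 1 TPM in every library. The plasmacytoid list had 8 of 12 expressed, led by the interferon-inducible genes Irf7 and Bst2, and Siglech, which marks those cells, was below the threshold.

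Markers of stroma, endothelium and keratinocytes were mostly below the threshold. The stroma and endothelium list had 3 of 14 expressed, and the collagens Col1a1, Col1a2 and Col3a1 were below the threshold. Vwf, an endothelial clotting factor in that list, had 16.5 ± 10.7 TPM, but only 3.12% of it lay in protein-coding transcripts. Keratinocyte markers had 1 of 7 expressed. Langerhans cell markers, from the dendritic cells of the epidermis, had 4 of 7 expressed, led by Kit with 60.5 ± 15.3 TPM and Cd207 with 48.3 ± 9.49 TPM (SD, n = 3). Erythrocyte and platelet markers had 0 of 10 expressed. The erythrocyte and platelet list summed to 17.3 TPM in library 1 against 1.25 and 3.63 TPM in the others, and its highest member by mean, the hemoglobin gene Hbb-bs, had 8.46, 0.224 and 1.12 TPM.

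The libraries held 27163393, 26947133 and 22855143 expected counts, and 10537 genes were expressed, 9600 of them protein-coding. Protein-coding genes between 1 and 1.5 TPM, 116 in number, had a median of 169.7 counts per library. A level carried by a short transcript can rest on far fewer counts. In library 1 the transcript Nr4a2-204 of the nuclear receptor gene Nr4a2 had 87.7 TPM from 36 counts. Of the protein-coding genes, 4515 reached 10 TPM in every library, 622 reached 100 TPM and 93 reached 1000 TPM. At the other end 10999 were below 1 TPM in every library, and 5480 of those had 0 counts in all 3, which allows up to 3 counts, or 0.110, 0.111 and 0.131 counts per 1000000 in libraries 1, 2 and 3. Long noncoding RNA genes of the lincRNA class numbered 131 among those expressed.

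A few groups of genes held much of the total. The 85 cytosolic ribosomal protein genes made up 15.97% ± 1.14 of TPM (SD, n = 3), and the 37 genes of the mitochondrial genome 10.2% ± 2.02, with 10.4%, 8.07% and 12.1% in libraries 1, 2 and 3. Of them 83 of 85 were expressed. Genes of the actin cytoskeleton list, 27 of 28 of them expressed, made up 4.23% ± 0.277, MHC class II genes 1.98% ± 0.235 and MHC class I genes with their loading factors 1.66% ± 0.322 (SD, n = 3). These shares are per length, so short RNAs weigh more than in a share of counts, where the ribosomal protein genes held 8.23% and the MHC class II genes 3.88%. Chemokines held 0.907%, 0.538% and 0.342% of TPM, with the highest share in library 1.

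Processed pseudogenes, copies of mRNAs inserted elsewhere in the genome, held 21.7% ± 1.06 of TPM (SD, n = 3) but 3.32% of counts. Among pseudogenes of any class 48 entries had a mean of at least 1000 TPM, and all 48 aligned over at least 90% of their length to the transcript of a coding gene at an identity of 98.7% or more. An identity of exactly 100% was found for 32 of them. Ribosomal protein genes were the best match of 32 entries, and 42 entries were listed above the coding gene they match, 13 of them over 10-fold. Rps12, a protein of the small ribosomal subunit, was listed at 77.8 ± 15 TPM while its copy Rps12l1 was listed at 4113 TPM. Rps27, another such protein, was listed at 26.5 ± 12.4 TPM, its copy Rps27rt on chromosome 9, annotated as coding, at 5758 ± 512 TPM, and its pseudogene Gm17241 on chromosome 15 at 4383 TPM (SD, n = 3). The sequences are printed to show how alike such entries are. They are the first 60 coding bases and the matching bases of the copies, from GENCODE M21 transcripts on GRCm38, 5′ to 3′, with capitals where Rps27 and Gm17241 differ, and T31G names the Rps27 base first and counts from 1 at the first base shown.
Rps12: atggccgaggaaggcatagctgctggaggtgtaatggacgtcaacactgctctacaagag
Rps12l1: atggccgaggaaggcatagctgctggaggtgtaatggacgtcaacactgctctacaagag
Rps27: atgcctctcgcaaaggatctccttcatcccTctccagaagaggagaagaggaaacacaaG
Rps27rt: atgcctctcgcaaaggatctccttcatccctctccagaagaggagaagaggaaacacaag
Gm17241: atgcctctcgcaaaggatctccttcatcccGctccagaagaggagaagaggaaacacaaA

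The pair of Rps12 entries is identical over all 399 bases of the alignment and that of Rps27 and Rps27rt over all 341 bases, so no read inside them can tell the entries apart. Levels of single genes with near-identical copies are therefore uncertain. This holds for Sec61g, a subunit of the protein channel of the endoplasmic reticulum, listed at 6.14 TPM beside its copy Gm10177 at 2769 TPM. It holds as well for Rpl12 with 19.4 TPM beside Gm10275 with 2537 TPM, and for Rpl5 with 18.7 TPM beside Gm15500 with 1937 TPM.

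A second uncertainty lies within genes. TPM can be assigned to a short noncoding transcript of a coding gene, and 2156 expressed protein-coding genes (22.5%) had under 50% of their TPM in protein-coding transcripts. A second level was therefore computed from the deposited counts, as the count of a gene over a fixed length. The length was that of its longest protein-coding transcript, or of its longest transcript where it had none. This level, scaled to 1000000, is called fixed-length TPM below. It was typically 1.72 times the TPM, and 82.7% of expressed protein-coding genes lay within 2-fold of that ratio. Expressed genes whose TPM is given below and whose ratio lies outside it are given on both scales. Over 856 genes with a single transcript, the ratio of counts per base to TPM rose with GC content across genes (Spearman rho 0.75), from 0.722 of the typical ratio in the tenth of genes with the lowest GC to 1.39 in that with the highest. Genes are not independent replicates, and no test was made of this relation.

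**Figure D2:**
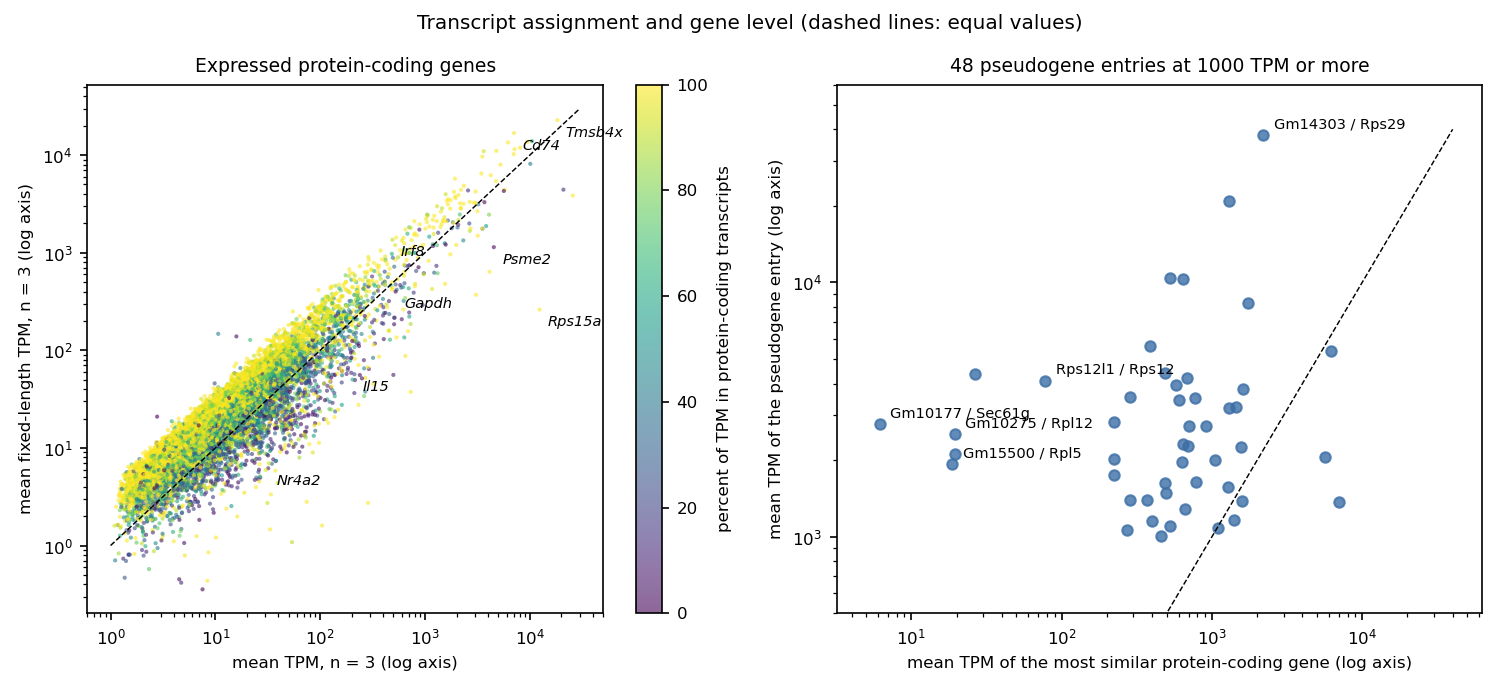
Left, mean fixed-length TPM against mean TPM of the 9600 expressed protein-coding genes (log axes, points coloured by the percent of TPM in protein-coding transcripts); right, mean TPM of the 48 pseudogene entries against that of the most similar coding gene (log axes, dashed lines at equal values). Genes with a low coding share lie mostly toward the lower side of the left cloud, and 42 of the 48 entries lie above the line on the right.

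The most abundant protein-coding gene outside the ribosomal protein and mitochondrial groups was Tmsb4x, thymosin beta 4, which binds actin monomers. It had 18752, 19703 and 16641 TPM, or 18365 ± 1567 (SD, n = 3), and the libraries lay close together. Next came Eef1a1, the elongation factor that brings transfer RNA to the ribosome, with 10488 ± 707 TPM and Actb, beta actin, with 10096 ± 270.1 TPM and 8138 fixed-length TPM on average. Cst3, the cystatin C that inhibits lysosomal proteases and is a hallmark of dendritic cells, had 7144 ± 928 TPM, close to Cd74, the invariant chain of MHC class II, with 7067 ± 763 TPM. Of the 25 genes at the top, 18 were also among the top 25 by fixed-length TPM. The order differed on that scale, where Cd74 had 16824 and ranked 2, and Cst3 had 11503. Actb ranked 8 there, below both and below the class II chains H2-Aa, H2-Ab1 and H2-Eb1.

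Immune genes took many of the next places. Ccl5, a chemokine that draws T cells and monocytes, had 8184, 4698 and 2850.2 TPM, or 5244 ± 2709 (SD, n = 3), and library 1 was the highest and library 3 the lowest. The MHC class II chains H2-Aa, H2-Ab1 and H2-Eb1 had 4789.8 ± 530.2, 3633 ± 476 and 3523 ± 525 TPM (SD, n = 3). B2m, the light chain of MHC class I, had 5564, 4124 and 3019.6 TPM and was highest in library 1. Fscn1, the actin-bundling fascin of mature dendritic cells, had 2828, 1529.7 and 1041 TPM and had the same order, with 2679, 1529 and 1132 fixed-length TPM.

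The rest of the top 25 were mostly genes of general cell upkeep and of the cytoskeleton. Hspa8, a constitutive chaperone, had 3221 ± 358 TPM, Psap, the precursor of lysosomal saposins, 1929.6 ± 259.96 TPM, and Vim, the intermediate filament vimentin, 1842 ± 341 TPM (SD, n = 3). Tpt1, a translationally controlled protein, had 5646 ± 220.3 TPM but only 1.02% of it in protein-coding transcripts, and 4293 ± 75.3 fixed-length TPM (SD, n = 3). Psme2, a chain of the PA28 activator that opens the proteasome, had 4534 ± 993 TPM with 2.93% in protein-coding transcripts, and 1140.04 ± 235 fixed-length TPM (SD, n = 3). The uncharacterised Gm17374 was listed at 8902, 147 and 135 TPM from 1828, 29 and 22 counts, and at 1078, 17.3 and 16.1 fixed-length TPM, so its place rested on library 1 alone.

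Of the 89 listed genes of antigen presentation 81 were expressed. Of the MHC class II list 15 of 15 were expressed and of the MHC class I list 23 of 23. H2-DMa and H2-DMb1, the chains of the H2-DM editor that loads peptides on class II, had 266 ± 26.8 and 214 ± 41.5 TPM. H2-Oa and H2-Ob, the chains of the inhibitor of H2-DM, had 78.1 ± 7.57 and 60.3 ± 15.4 TPM (SD, n = 3), below those of the editor in each library. Ciita, the coactivator on which class II transcription depends, had 32, 44.4 and 66.2 TPM and was lowest in library 1 and highest in library 3. March1, the ubiquitin ligase that removes class II from the surface, had 40.1 ± 8.09 TPM, and Rfx5, Rfxap and Rfxank, the subunits of the RFX complex that holds CIITA at the DNA, had 10.3, 33.5 and 5.28 TPM on average (Rfxap 12.3 by fixed length).

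Ciita acts through a short conserved promoter stretch whose last element, the Y box, is bound by NF-Y and reads CTGATTGG in some class II genes. A search for CTGATTGG on either strand of 250 bases before each start found it in 1258 of 32851 RefSeq windows, or 3.83%. Of the 15 MHC class II list genes 10 had a window, and 4 of these held the motif: H2-Aa, H2-Eb1, H2-Eb2 and H2-Oa. The windows of H2-DMa, H2-DMb1, H2-DMb2 and H2-Ob did not hold it, nor did those of the regulators Rfx5 and Rfxank. The 150 bases just before the start of 3 of them are shown because they hold the same letters at similar distances in genes whose levels differ widely, H2-Aa and H2-Eb1 above 1000 TPM and H2-Oa below 100 TPM. They come from RefSeq on GRCm38.p6, 5′ to 3′ on the strand of the gene, with the motif in capitals, from chr17:34287824-34287973 (minus strand), chr17:34305717-34305866 (plus strand) and chr17:34092229-34092378 (plus strand).
H2-Aa: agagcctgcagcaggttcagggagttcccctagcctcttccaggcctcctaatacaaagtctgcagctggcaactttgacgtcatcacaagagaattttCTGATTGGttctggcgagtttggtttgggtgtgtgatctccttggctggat
H2-Eb1: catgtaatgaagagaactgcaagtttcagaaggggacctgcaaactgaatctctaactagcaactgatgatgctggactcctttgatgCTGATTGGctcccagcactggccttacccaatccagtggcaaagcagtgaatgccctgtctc
H2-Oa: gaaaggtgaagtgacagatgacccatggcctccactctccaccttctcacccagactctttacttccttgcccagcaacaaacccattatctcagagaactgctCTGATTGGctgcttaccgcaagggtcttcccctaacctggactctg

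The motif lay 51 to 44 bases before the start in H2-Aa, 62 to 55 in H2-Eb1 and 46 to 39 in H2-Oa. A match is a description of these letters, and windows without them were not searched for other forms of the element.

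For MHC class I, the heavy chains H2-D1 and H2-K1 had 1454 ± 279 and 1303 ± 274 TPM (SD, n = 3). The immunoproteasome subunits Psmb8 and Psmb9, which shape peptides for class I, had 421 ± 42.2 and 449 ± 31.8 TPM. Tap1 and Tap2, the chains of the peptide transporter, had 228 ± 22.9 and 161 ± 12.5 TPM, and for Tap2 only 18.6% lay in protein-coding transcripts, with 192 ± 3.54 fixed-length TPM. Nlrc5, the class I counterpart of CIITA, had 43.7 ± 20.1 TPM, near the level of Ciita. Of the nonclassical presenting molecules, the lipid presenter Cd1d1 had 20.5 ± 5.38 TPM, Mr1, which presents vitamin B metabolites, had 0.450, 1.47 and 1.05 TPM, and Cd1d2 was below the threshold.

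Lysosomal proteases were selective. Of the cathepsin list 19 of 24 were expressed, led after Cst3 and Psap by Ifi30, the reductase GILT, with 439 ± 49.4 TPM, Ctss, which trims the invariant chain, with 365 ± 41.9 TPM, and Ctsh with 325 ± 73.2 TPM. Ctsl, which trims the invariant chain in thymic epithelium, had 3.94 ± 1.08 TPM (SD, n = 3) and 1.38 fixed-length TPM, and Ctsk, the bone protease, and Ctsf were below the threshold. Lgmn, the asparagine endopeptidase, had 53, 26.7 and 18.6 TPM and was highest in library 1. Ctse, an aspartic protease, had 2.72, 2.3 and 41.8 TPM, and library 3 stood apart on counts as well, with 263, 219 and 3278.

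Genes tied to cross-presentation were expressed for 23 of 24. Wdfy4, which cDC1 need to cross-present cell-bound antigen, had 90.6, 149.8 and 178 TPM, and Rab43, a vesicle GTPase of the same process, had 187, 231 and 314 TPM. Dnase1l3, a nuclease that digests DNA of dying cells, had 112 ± 6.95 TPM (SD, n = 3). The phagocyte oxidase was uneven: its small membrane subunit Cyba had 377 ± 47.9 TPM and the cytosolic Ncf4 118 ± 26.9 TPM, while the catalytic subunit Cybb had 1.55, 1.02 and 0.557 TPM. Cybb alone in the cross-presentation list did not reach 1 TPM in every library.

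**Figure D3:**
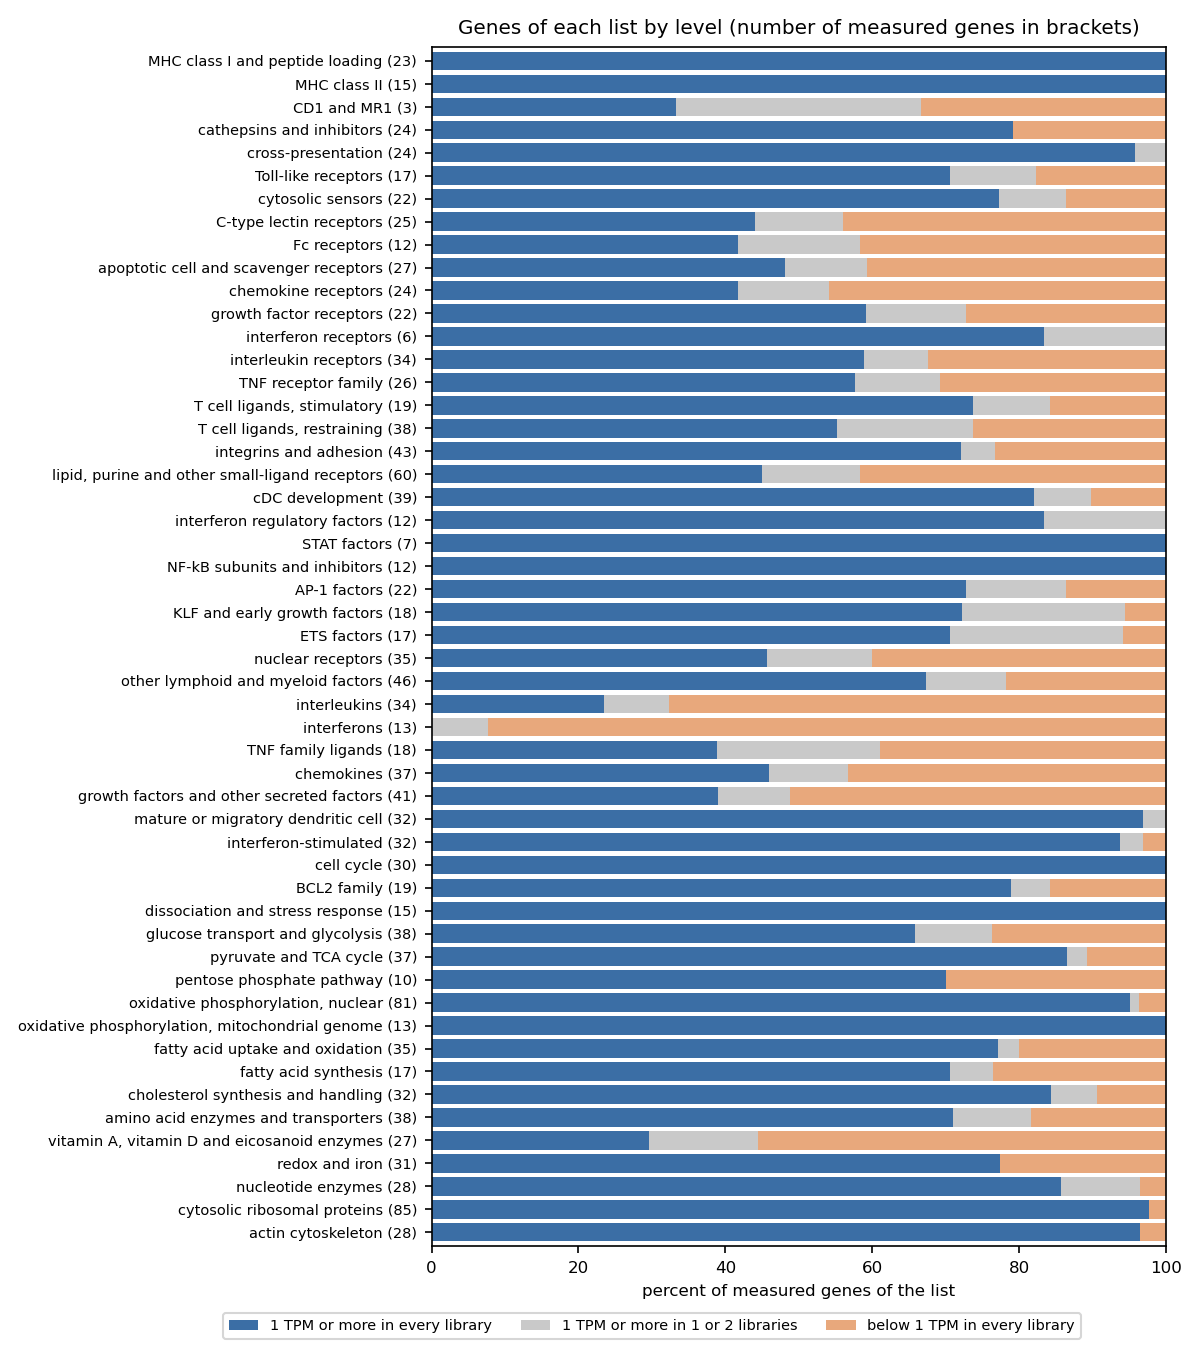
Percent of the measured genes of each list (number in brackets) at 1 TPM or more in every library (blue), in 1 or 2 libraries (grey) and below 1 TPM in every library (orange). MHC lists, STAT and NF-kB genes are wholly blue, and the interferons have no blue part.

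Receptors were expressed for 206 of 365 listed genes, or 56.4%. Among Toll-like receptors and their partners 12 of 17 were expressed, led by Unc93b1, the chaperone that carries the endosomal receptors, with 118 ± 30.6 TPM. Tlr3, the sensor of double-stranded RNA, had 33.6, 52.4 and 59.2 TPM, and Tlr11, which with Tlr12 senses profilin of Toxoplasma, had 34, 49.4 and 57.6 TPM. Tlr12, Tlr9 (unmethylated DNA) and Tlr13 (bacterial ribosomal RNA) had 13.1 ± 4.8, 14.4 ± 3.37 and 13.9 ± 3.12 TPM (SD, n = 3). The single-stranded RNA sensors Tlr7 and Tlr8 and the flagellin sensor Tlr5 were below the threshold. Tlr4, the sensor of bacterial lipopolysaccharide, had 2.17, 2.71 and 2.11 TPM, and its partner Ly96 had 12.4 ± 0.970 TPM.

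Cytosolic sensors were expressed for 17 of 22. The inflammasome adaptor Pycard had 72 ± 16.8 TPM and Aim2, which senses DNA for that complex, had 46.4 ± 18.8 TPM, but by fixed length Pycard (23.4) was below Aim2 (31.8). Tmem173, the adaptor STING, had 15.2 ± 1.03 TPM and Cgas, the enzyme that signals to it, 4.72 ± 0.328 TPM (SD, n = 3). Ifih1, the RNA sensor MDA5, had 13.1 ± 3.44 TPM, and Nlrp6, Nlrp10 and Nlrp12 were below the threshold. C-type lectin receptors were expressed for 11 of 25. After Clec9a came Clec12a, an inhibitory receptor for uric acid crystals, with 97.4 ± 17.1 TPM, Clec2d with 71.4 ± 23 TPM, and Cd207, langerin, with 39.1, 58 and 47.7 TPM. Ly75, the endocytic receptor DEC-205, had 31.2, 27.3 and 24 TPM. Clec4e, Clec4d and Clec4n, the receptors Mincle, MCL and Dectin-2 for microbial glycolipids and mannans, were below the threshold, as was the mannose receptor Mrc1.

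Fc receptors were expressed for 5 of 12. Fcgrt, the neonatal receptor that salvages antibody, had 72.3 ± 33.8 TPM, the shared signalling chain Fcer1g 39.8 ± 11.3 TPM and the inhibitory Fcgr2b 27.8 ± 7.81 TPM (SD, n = 3). The activating receptors Fcgr1 and Fcgr3 were below the threshold, although their signalling chain was not. Among receptors for dying cells and scavenger receptors 13 of 27 were expressed. Cd36 had 89.99 ± 26.8 TPM and Havcr2, the phosphatidylserine receptor TIM-3, 54.5 ± 12.7 TPM. Mfge8, a secreted bridge between dying cells and integrins, had 179, 101 and 76.7 TPM and was highest in library 1. Of the TAM receptors, Axl had 2.62 ± 1.08 TPM and Mertk and Tyro3 were below the threshold.

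Chemokine receptors were expressed for 10 of 24. Ccr7, which guides migratory dendritic cells into the node, had 232, 167 and 129 TPM, or 176 ± 52.1 (SD, n = 3), above Xcr1 in every library, and library 1 was the highest. Ccr2, a receptor of monocytes and precursors, had 35.9, 58.1 and 73.3 TPM, and Cxcr4 and Cxcr3 had 30.4 ± 1.4 and 18.8 ± 3.33 TPM. Ccr1, Ccr3, Ccr4 and Cx3cr1 were below the threshold. Cxcr5, which leads cells to B cell follicles, was also below it.

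Growth factor receptors were expressed for 13 of 22. Flt3, the receptor that drives dendritic cell development, had 103, 99.1 and 113 TPM, and Csf2rb, the shared chain of the GM-CSF, IL-3 and IL-5 receptors, had 113, 97.4 and 104 TPM. Csf2ra, the GM-CSF binding chain, had 32.4 ± 8.43 TPM (128 by fixed length) and Kit, the stem cell factor receptor, 60.5 ± 15.3 TPM (SD, n = 3). Csf1r, the receptor of macrophage growth, had 1.55, 0.638 and 0.634 TPM, and Csf3r, that of neutrophils, was below the threshold. Among interferon receptors 5 of 6 were expressed, led by Ifngr1 with 148 ± 31.6 TPM, while both type I chains, Ifnar1 and Ifnar2, had 28.1 ± 10.6 and 31 ± 3.22 TPM. Ifnlr1, the receptor chain for type III interferon, had 0.998, 1.09 and 2.92 TPM.

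Interleukin receptors were expressed for 20 of 34. The common gamma chain Il2rg had 61.3 ± 8.66 TPM, Il15ra, which presents IL-15 to lymphocytes, 41.1 ± 8.56 TPM and Il10ra 33.6 ± 12.7 TPM (SD, n = 3). The IL-1 receptor Il1r1 and the IL-33 receptor Il1rl1 were below the threshold. In the TNF receptor family 15 of 26 were expressed and Cd40 led it. Cd40, the target of the agonist in the treated groups, had 134, 113 and 112 TPM in these untreated cells, or 119 ± 12.7 (SD, n = 3). Tnfrsf4, the receptor OX40, had 97.9, 64.6 and 46.8 TPM, highest in library 1. Ltbr, the lymphotoxin beta receptor, had 8.2, 21.5 and 59.5 TPM, of which 24.5% lay in protein-coding transcripts, and 18.3, 29.2 and 35.8 fixed-length TPM.

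Integrins and adhesion molecules were expressed for 31 of 43. Selplg, the ligand of selectins, had 325 ± 35.5 TPM, Itgb7, the partner of CD103, 189 ± 71.5 TPM and Itgax, CD11c, 57.8 ± 15 TPM (SD, n = 3). Itgam, CD11b, was below the threshold, and Itgad and Itgb6 were as well. Receptors for lipids, purines and other small ligands were expressed for 27 of 60. The highest were Gpr132, a receptor for oxidised lipids and lactate, with 50.2 ± 13 TPM, P2ry14, for UDP-glucose, with 44.2 ± 5.39 TPM, P2ry10 with 39.2 ± 7.46 TPM and Adora2a, an adenosine receptor, with 28.3 ± 11.6 TPM. The chemoattractant receptors Fpr1, C5ar1 and C3ar1, typical of neutrophils and macrophages, were below the threshold.

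**Figure D4:**
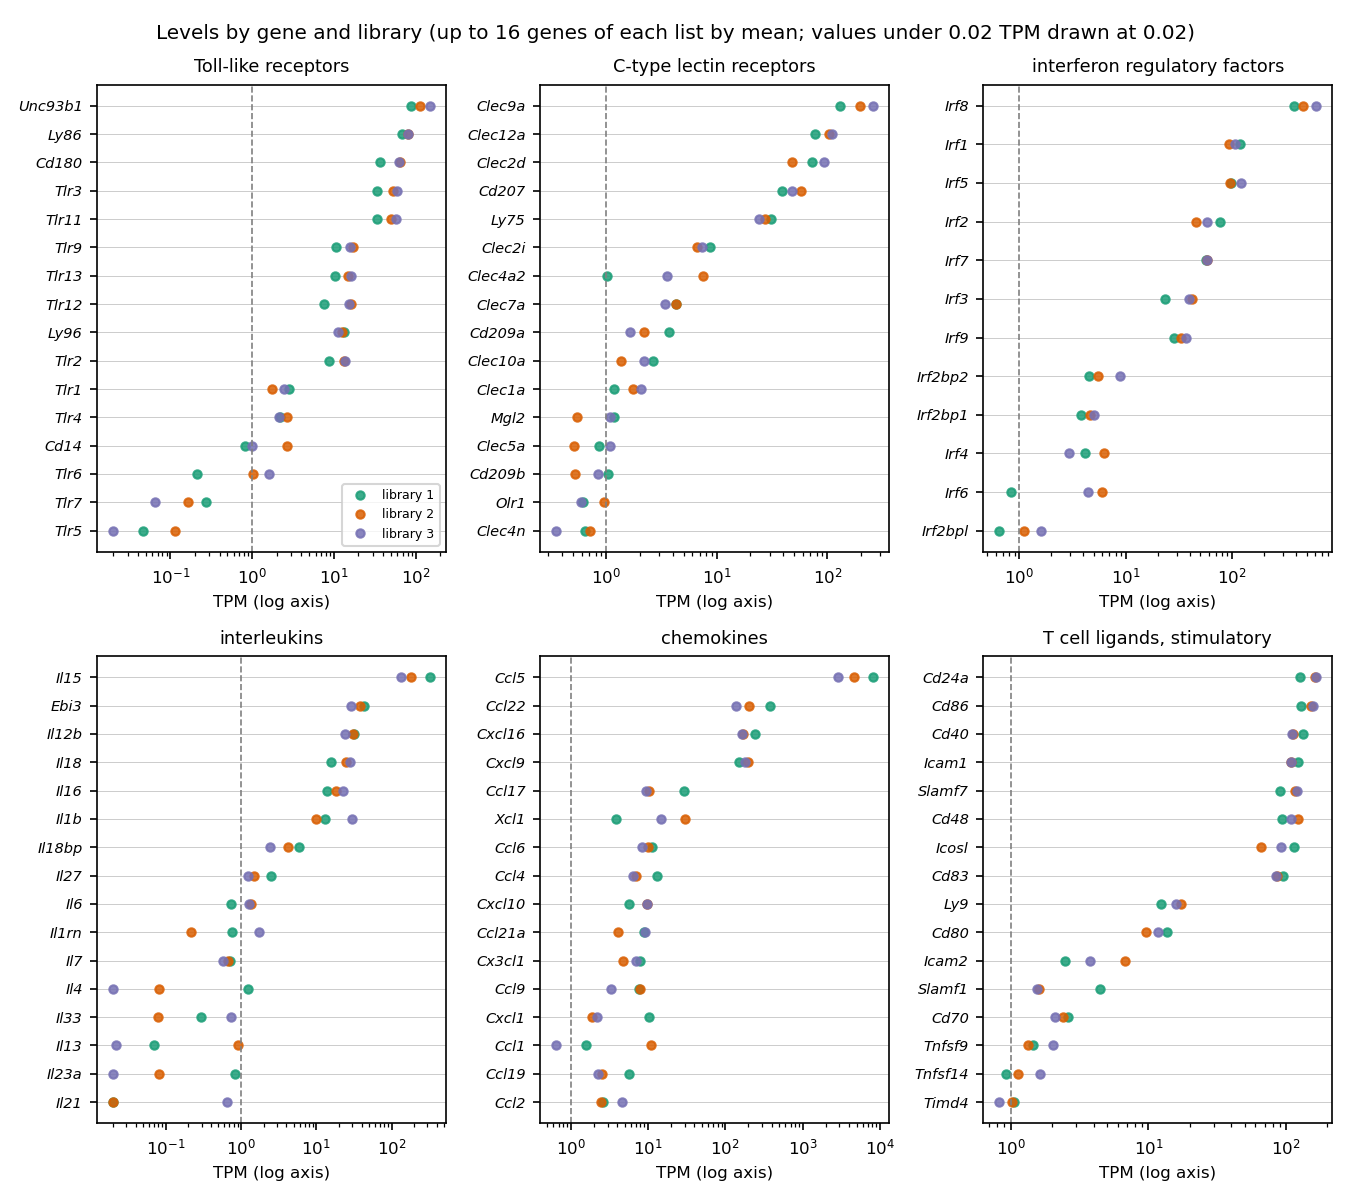
TPM (log axis, 1 point per gene and library, dashed line at 1 TPM) of up to 16 genes of 6 lists, in order of their mean, with values under 0.02 TPM drawn at 0.02. Unc93b1, Clec9a, Irf8, Il15, Ccl5 and Cd24a lead their lists.

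Ligands that act on T cells were present on both sides. Of the stimulatory ligands 14 of 19 were expressed. Cd86, which engages CD28, had 129.5, 151 and 158 TPM, and Cd80, which engages the same receptor, had 13.6, 9.57 and 11.8 TPM, so Cd86 was the higher in each library. Icam1 and Icosl, the ligands of LFA-1 and ICOS, had 113 ± 8.27 and 90.9 ± 24.1 TPM (SD, n = 3). Cd83, which stabilises CD86 and class II, had 88.6 ± 6.01 TPM, with 3.93% in protein-coding transcripts and 196 ± 14 fixed-length TPM. Cd70, the ligand of CD27, and Tnfsf9, that of 4-1BB, had 2.36 ± 0.261 and 1.6 ± 0.361 TPM, while Tnfsf4, Tnfsf8 and Tnfsf18, the ligands of OX40, CD30 and GITR, were below the threshold.

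Restraining molecules were expressed for 21 of 38. Cd47, the signal against uptake, had 143 ± 17.3 TPM (117 by fixed length), Btla, an inhibitory receptor of cDC1 and lymphocytes, 99.2 ± 25.7 TPM, and Fgl2 97.6 ± 16.9 TPM (SD, n = 3). Cd274, the ligand PD-L1, had 9.26, 6.97 and 4.65 TPM and Pdcd1lg2, PD-L2, 2.13, 1.68 and 1.03 TPM, so that PD-L1 was the higher in each library. The tryptophan-degrading Ido1 and Ido2 and the B7 members Cd276 and Vtcn1 were below the threshold.

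Transcription factors were expressed for 135 of 194 listed genes, or 69.6%. Of those of conventional dendritic cell development 32 of 39 were expressed. Id2, the inhibitor of E proteins that cDC1 need, had 385, 399.9 and 451 TPM, and Spi1, the factor PU.1 of myeloid cells, had 168, 156 and 169 TPM. Mycl, a MYC relative of dendritic cells, and Zbtb46, the factor that marks conventional dendritic cells, had 62.8 ± 19.5 and 26 ± 4.11 TPM (SD, n = 3). Nfil3 and Bcl6, which also act in cDC1 development, had 4.17 ± 0.567 and 18.7 ± 3.56 TPM. Zeb2, which Nfil3 opposes, had 1.61, 1.18 and 0.597 TPM. Gata2 and Gfi1 of progenitors and the T-box factors Tbx21 and Eomes were below the threshold. Nr4a2, an immediate early nuclear receptor, had 89.3, 2.64 and 3.82 TPM, of which 6.94% lay in protein-coding transcripts, and 4.18, 6.01 and 8.37 fixed-length TPM.

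Among interferon regulatory factors 10 of 12 were expressed. Irf8 had 384, 466 and 615 TPM and Irf4, the factor of cDC2, 4.11, 6.18 and 2.95 TPM, and the ranges of the pair did not overlap. Irf1, Irf5 and Irf2 had 106 ± 11.7, 104 ± 14.5 and 60.1 ± 15.8 TPM (SD, n = 3). All 7 of 7 STAT genes were expressed, among them Stat3 with 66.7 ± 9.16 TPM. All 12 of 12 genes of NF-kB subunits and inhibitors were expressed as well. The inhibitor Nfkbia had 221 ± 27 TPM, and Relb, the subunit of the alternative pathway, had 136, 94 and 86.6 TPM, above Nfkb1, Nfkb2, Rela and Rel with 52.3, 49.8, 21 and 8.04 TPM on average. By fixed length these 5 genes had 332, 83.4, 182, 77.7 and 19.5.

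AP-1 factors were expressed for 16 of 22, and Fos, which rises within minutes of many stimuli, was the highest with 364, 446 and 638 TPM. Junb and Jun had 96.3 ± 16.7 and 78.6 ± 28.2 TPM (SD, n = 3), and 415 and 265 by fixed length, and Fosl1 and Nrl were below the threshold. All 15 of 15 genes of a list that rises when tissue is dissociated, Fos and Jun among them, were expressed, and how the tissue was handled is not in the labels. Of KLF and early growth factors 13 of 18 were expressed, led by Klf6 with 90.7 ± 6.85 TPM and Egr1 with 39.7, 48.9 and 63 TPM. ETS factors were expressed for 12 of 17: Spi1 led, and Etv3 and Elk4 had 49.5 ± 11.5 and 48.9 ± 28.9 TPM, with 20.2 for Elk4 by fixed length. Only Erg was below 1 TPM in every library.

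Nuclear receptors had the smallest expressed share of the factor lists, with 16 of 35, or 45.7%. This was near the 43.8% of all protein-coding genes. Nr1h2, the oxysterol receptor LXR beta, had 66.4 ± 10.8 TPM, Nr4a1 50.1 ± 24.5 TPM and Rara, a receptor for retinoic acid, 12.6 ± 6.7 TPM (SD, n = 3). The estrogen receptors Esr1 and Esr2 and the lipid receptor Ppara were below the threshold. Other lymphoid and myeloid factors were expressed for 31 of 46, led by Nfe2l1 with 60.3 ± 9.23 TPM. Cebpb, a factor of monocytes, Tox and Gata1 were below the threshold.

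Cytokines were the class with the smallest expressed share: 48 of 143, or 33.6%, below the 43.8% of all protein-coding genes. 79 were below the threshold and 25 of those had 0 counts in all 3 libraries. Of the interleukins 8 of 34 were expressed. Il15, which sustains memory CD8 T cells and NK cells, had 324, 179.8 and 132 TPM, 22.6% of it in protein-coding transcripts, and 85.8, 45.7 and 39 fixed-length TPM. Library 1 was the highest on both scales.

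The IL-12 family was uneven. Il12b, the p40 subunit shared by IL-12 and IL-23, had 31.5, 31.1 and 23.9 TPM, whereas Il12a, the p35 subunit that completes IL-12, had 0.106, 0.0700 and 0 TPM and Il23a, the subunit that completes IL-23, had 0.822, 0.0810 and 0.0149 TPM. Ebi3, a subunit of IL-27, had 43.5, 38.7 and 29 TPM, and its partner Il27 had 2.54, 1.5 and 1.24 TPM. Thus p40 and Ebi3 were measured well above their partners in each library. Il18 and Il1b, which are cut by caspase-1, had 22.7 ± 6.3 and 17.6 ± 10.8 TPM (SD, n = 3), while Il1a, Il10, Il2 and Il7 were below the threshold.

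Interferons were not detected beyond traces: 0 of 13 were expressed and 11 had 0 counts in all 3 libraries, including Ifnb1 and the Ifna genes of the list. Ifng, the interferon of T and NK cells, had 0.127, 1.23 and 1.12 TPM. TNF family ligands were expressed for 7 of 18, with Ltb, lymphotoxin beta, at 19.1 ± 4.72 TPM (66.8 by fixed length) and Tnf at 5.85, 1.8 and 5.75 TPM.

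Chemokines were expressed for 17 of 37 and varied between libraries. After Ccl5, Ccl22, a ligand of CCR4, had 376, 204 and 136 TPM and Ccl17, another ligand of CCR4, had 29.7, 10.3 and 9.44 TPM. Cxcl16 had 190.5 ± 42.4 TPM, 26% of it in protein-coding transcripts, with 320.03 ± 67.4 fixed-length TPM. Cxcl9 and Cxcl10, which draw CXCR3-bearing T cells, had 150.3, 197 and 182 TPM and 5.75, 9.87 and 9.78 TPM respectively, so Cxcl9 was the higher in each library. Ccl5, Ccl22 and Ccl17 were each highest in library 1. Xcl1, the ligand of XCR1 made by T and NK cells, had 3.9, 30.5 and 14.8 TPM from 50, 377 and 151 counts and was lowest in library 1, where Trac and Cd3e were lowest too, and the part of T cell RNA in this was not tested. The neutrophil attractants Cxcl2, Cxcl3 and Cxcl5 were below the threshold.

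Other secreted factors were expressed for 16 of 41. Anxa1, annexin A1, had 207 ± 106 TPM, Grn, the lysosomal progranulin, 119.6 ± 11 TPM, and Tgfb1 64 ± 18.9 TPM (SD, n = 3). Flt3l, the ligand of Flt3, had 10.2 ± 3.35 TPM. Vegfa, Csf2, Igf1 and Tgfb2 were below the threshold.

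Metabolic genes were expressed for 298 of 381, or 78.2%, and in several sets of isoenzymes 1 member stood far above the rest. Of the glucose transport and glycolysis list 25 of 38 were expressed. Gapdh had 524 ± 36.9 TPM with 0.572% in protein-coding transcripts and 399.8 ± 29.9 fixed-length TPM, and Gpi1, the isomerase after hexokinase, had 259 ± 7.72 TPM (SD, n = 3). Ldha, the lactate dehydrogenase chain of glycolytic tissue, had 159.6, 198 and 175 TPM against 0.687, 0.575 and 1.83 TPM for Ldhb. Hk2, Hk1 and Hk3, the hexokinases, had 13.4 ± 5.05, 8.84 ± 1.6 and 8.84 ± 2.17 TPM, closer together than the lactate dehydrogenases. Of the phosphofructokinases Pfkp had 49.7 ± 14.9 TPM, Pfkl 14.3 ± 6.5 TPM and Pfkm 1.3 ± 0.607 TPM.

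Glucose transporters were low. Slc2a6, a lysosomal member of the family, had 12.5 ± 5.6 TPM, Slc2a1, GLUT1, 4.15 ± 0.947 TPM and Slc2a3, GLUT3, 0.715, 0.885 and 1.26 TPM (SD, n = 3). Slc2a2, Slc2a4 and the liver and testis enzymes Pklr and Gapdhs were below the threshold. Eno3, the enolase of muscle, had 202, 88.4 and 88.7 TPM, highest in library 1, beside Eno1 with 153 ± 41.4 TPM. Pfkfb3, which makes the activator of phosphofructokinase, had 114 ± 28.6 TPM.

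Of the pyruvate and TCA cycle list 32 of 37 were expressed, with Sdha at 333 ± 19.8 TPM, 13% of it in protein-coding transcripts and 117 ± 4.31 fixed-length TPM, and Mdh1 at 146 ± 18.5 TPM (SD, n = 3). Acod1, which makes itaconate in activated macrophages, and Pdk4 were below the threshold. Pentose phosphate genes were expressed for 7 of 10, led by Taldo1, transaldolase, with 239 ± 23.7 TPM and Tkt, transketolase, with 83.7 ± 17.6 TPM. Nuclear genes of oxidative phosphorylation were expressed for 77 of 81. The general isoforms Cox4i1 and Cox6a1 of cytochrome oxidase had 553 ± 56.5 and 129.7 ± 13.1 TPM, and their tissue-specific counterparts Cox4i2 and Cox6a2 had 0.0153 and 0.257 TPM on average. All 13 of 13 protein genes of the mitochondrial genome were highest in library 3, on a background of 48.7% of expressed protein-coding genes.

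Fatty acid oxidation genes were expressed for 27 of 35. Plin2, which coats lipid droplets, had 155 ± 40.2 TPM and Hadha, of the trifunctional protein, 69.7 ± 3.96 TPM (SD, n = 3), or 57.1 by fixed length. Cpt1a, the form that admits fatty acids to mitochondria outside muscle, had 9.17 ± 1.89 TPM against 0.296 TPM for the muscle form Cpt1b. Fatty acid synthesis genes were expressed for 12 of 17, led by the regulator Srebf1 with 29.6 ± 4.19 TPM, and Acacb and Scd3 were below the threshold. Cholesterol genes were expressed for 27 of 32. Npc2, the lysosomal cholesterol carrier, had 198 ± 31.7 TPM, and Abca1 and Ch25h were below the threshold.

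Eicosanoid and vitamin genes were mostly below the threshold, with 8 of 27 expressed. Alox5ap, which presents arachidonic acid to 5-lipoxygenase, had 513, 631 and 707 TPM (445 on average by fixed length), while Alox5, the lipoxygenase itself, had 0.108, 0.304 and 0.0295 TPM. Ptgs1 was below the threshold and Ptgs2, the inducible cyclooxygenase, had 1.94, 3.06 and 0.728 TPM. Aldh1a2, which makes retinoic acid in dendritic cells of the gut, had 1.79, 1.15 and 0.876 TPM, and Aldh1a1 had 0 counts. Cyp27a1, a sterol and vitamin D hydroxylase, had 44 ± 17.9 TPM (SD, n = 3).

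Amino acid enzymes and transporters were expressed for 27 of 38. Slc3a2, the heavy chain CD98 of amino acid transporters, had 232 ± 31.2 TPM (70.8 by fixed length), Ass1, which joins citrulline and aspartate, 103 ± 8.74 TPM, and Il4i1, a secreted amino acid oxidase, 123, 71.9 and 80.7 TPM. Arg1 and Nos2, the arginine enzymes of macrophages, were below the threshold. Redox and iron genes were expressed for 24 of 31: the ferritin chains Ftl1 and Fth1 had 1573 ± 256 and 837 ± 60.6 TPM, and Sod1 799 ± 46 TPM (SD, n = 3). Slc40a1, the iron exporter, and Nqo1 were below the threshold. Nucleotide enzymes were expressed for 24 of 28, led by Nme2 with 229 ± 39.7 TPM and Samhd1, which degrades deoxynucleotides, with 222 ± 4.4 TPM.

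The BCL2 family was expressed for 15 of 19. The survival genes Bcl2a1b, Bcl2a1d and Bcl2a1a had 291 ± 98.7, 230.3 ± 51.2 and 178 ± 37.6 TPM (SD, n = 3), although these near-identical copies cannot be well told apart by reads. Mcl1 had 97.5 ± 10.1 TPM and Bcl2 itself 1.09, 1.02 and 1.87 TPM. The death effector Bax had 268 ± 38.4 TPM (126 by fixed length) and Bak1 41 ± 1.46 TPM. Interferon-stimulated genes were expressed for 30 of 32, mostly at moderate levels: after Cxcl9 came Sp100 with 83.6 ± 10.5 TPM and Irf7 with 57.3, 58.2 and 57.9 TPM, while the interferon genes themselves were at or near 0 counts. Irf7 looked equal between libraries in TPM but not in counts, where it had 2510, 3879 and 2918, and 67.5, 106 and 98.2 fixed-length TPM.

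All 30 of 30 cell cycle genes were expressed. Mki67, which marks cycling cells, had 5.46, 8.85 and 7.49 TPM, Top2a, which untangles chromosomes, 24.6, 38.4 and 27.4 TPM and Pcna, the clamp of DNA replication, 118, 136 and 98.1 TPM. Of the 30 genes 26 were highest in library 2, against 27.9% of all expressed protein-coding genes. By fixed length 26 were, against 22.4%. Library 2 thus held the highest levels of most genes of this list, and no test was made of this. The list was chosen with earlier results of these data known.

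The 3 libraries also differed in the balance of maturation and identity genes. Of the list of mature or migratory dendritic cells 31 of 32 were expressed, and 17 members also stand in another list. Of the 31, 30 were highest in library 1, against 23.4% of all expressed protein-coding genes. This list and the others were chosen with earlier results of these data known. Such counts therefore describe these libraries and are not independent support. The list summed to 17428, 10400.2 and 7245 TPM in libraries 1, 2 and 3, most of it from Ccl5 and Fscn1. The median member was higher in library 1 by 0.59 (log2) than in library 2 and by 0.84 than in library 3. Traf1, an adaptor of TNF receptors, had 284, 198 and 194 TPM, Cacnb3, a calcium channel subunit, 283, 183 and 214 TPM, and Cd63, a tetraspanin of endosomes, 284, 150.05 and 91.2 TPM, each highest in library 1.

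The cDC1 markers ran in the opposite order. Of the 30, 26 were lowest in library 1, against 48.2% of all expressed protein-coding genes, and the list summed to 3476, 4692 and 5298 TPM in libraries 1, 2 and 3. The counts of 30 and 26 were the same by fixed-length TPM, where 23% of the expressed protein-coding genes were highest and 47.9% lowest in library 1. Cholesterol genes followed the maturation genes in part: 17 of 27 were highest in library 1, Idi1 of the isoprenoid path with 59.1, 33.5 and 18.7 TPM. Whether the libraries differ in their mix of resident and migratory cells or in the state of the cells cannot be told apart in bulk RNA, and no test was made over 3 single libraries.

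**Figure D5:**
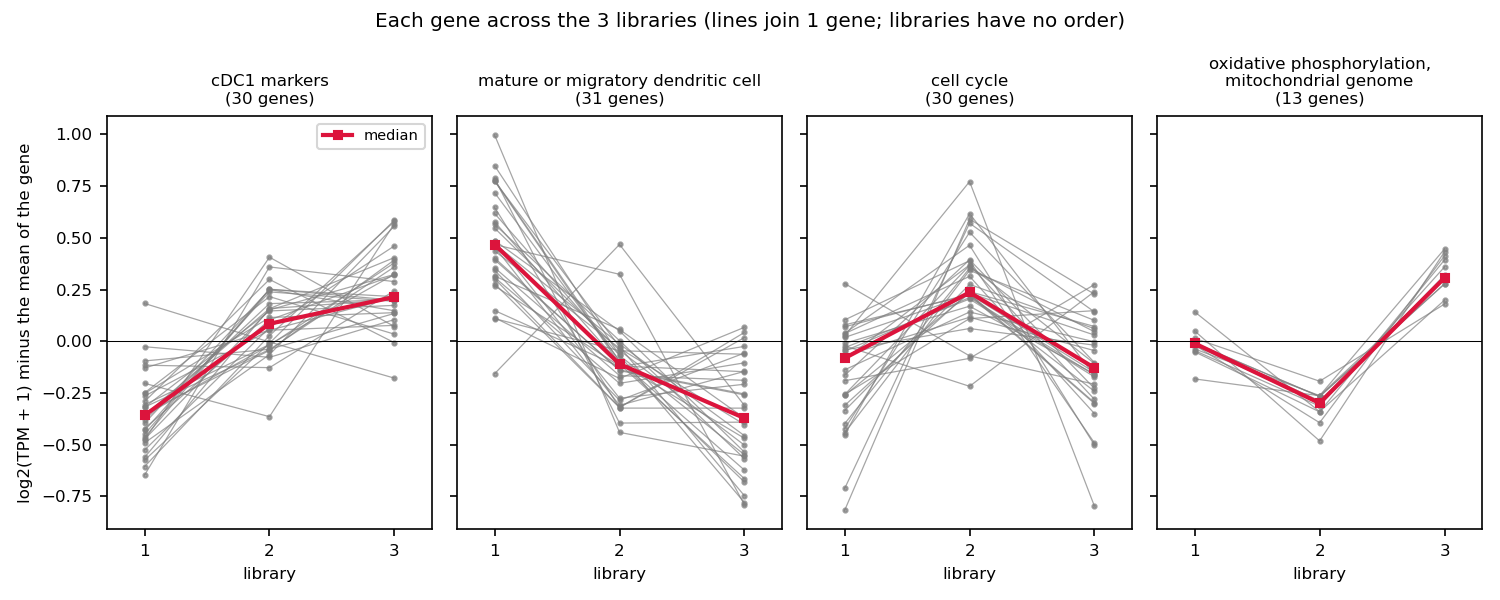
log2(TPM + 1) of each expressed gene in each library, less its mean over the 3 libraries, for 4 lists; grey lines join 1 gene, red squares are medians over genes, and the libraries have no order. Maturation genes are highest in library 1 for 30 of 31, cDC1 markers lowest there for 26 of 30, cell cycle genes mostly highest in library 2 and the 13 mitochondrial genes highest in library 3. The lists were chosen with earlier results of these data known.

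Across all genes the libraries were similar. Pearson correlations of log2(TPM + 1) over expressed genes were 0.957 for libraries 1 and 2, 0.953 for 1 and 3 and 0.964 for 2 and 3, values across genes of the same libraries and not a test. Over the 6053 genes at 10 TPM or more on average the median SD of log2(TPM + 1) was 0.26 and the median coefficient of variation 18.9%. Of these genes 494, or 8.16%, differed at least 4-fold between their highest and lowest library on the log2(TPM + 1) scale, and 74 of the 494 were protein-coding. By fixed-length TPM 86 of 7208 genes did, or 1.19%, with a median coefficient of variation of 14.7%. The furthest library was library 1 for 161 of the 494 genes, library 2 for 142 and library 3 for 191. The common biological coefficient of variation of the counts, fitted with edgeR over 13356 genes, was 27.4%.

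Of protein-coding genes at 50 TPM or more on average, most of the 12 with the largest spread in TPM spread less by fixed length. Parp2, a DNA repair enzyme, had 112, 10.1 and 109.7 TPM but 19.6, 16.9 and 27.7 fixed-length TPM, and Slc15a4, a lysosomal peptide transporter, had 43.9, 166 and 184 TPM but 28.9, 27.5 and 30.5 fixed-length TPM. Mycbp, Twf1, Frmd4a, Cbl, Smim20 and Snx6 likewise had an SD of log2 fixed-length TPM far below that of TPM. Gm10985 had 30, 9 and 27 counts and Gm10197 had 28, 67 and 90 counts. Gm17374, given above, spread nearly as widely by fixed length. Fxyd2, a sodium pump regulator, had 173, 57.1 and 46.4 TPM and was highest in library 1 by fixed length too, at 61.9, 24.6 and 24.2. At the other end Nelfb, a subunit of a complex that pauses RNA polymerase, had 51.9, 52.3 and 51.9 TPM and Clta, a clathrin light chain, 160.1, 157 and 159 TPM. Plekhj1, Lsm14a and Chmp2a were the other members of the 6 with the smallest spread besides Irf7.

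Of the 74 protein-coding genes 11 also differed 4-fold or more by fixed length, with 1 added to each value and a mean of at least 10 on that scale, and 29 had a mean below 10 by fixed length. They include Xcl1 and Ctse, given above, and Lad1, an anchor of keratin filaments, with 38, 22.5 and 5.88 TPM. The replication-dependent histone gene Hist1h2ao had 0, 73.7 and 65.3 TPM and its neighbour Hist1h2ap 46.8, 19.96 and 10.3 TPM. Library 1 was the lowest for the former and the highest for the latter, and such histone copies share reads.

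Transcript use was stable for some genes and not for others. Flt3 was almost wholly in its main transcript, with 98.7% ± 0.727 of its TPM, and the main transcript of Irf8 made up 82.8% ± 3.83 of its TPM (SD, n = 3). For Ciita, whose promoters differ between cell types, its main transcript held 80.6%, 74% and 72%, and the next 8.06%, 17.9% and 18%, so library 1 held less of the latter. Pkm, pyruvate kinase, was split, with the main transcript at 53.9% ± 1.52 (SD, n = 3). Some shares moved between all and nothing: Nr4a2-204 held 98.2% of Nr4a2 in library 1 and 0% in the others, and Parp2-207 held 87.7%, 0% and 82.1% of Parp2. These shares are estimates of the quantifier from short reads, and their counting error was not given.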

How the data were processed

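The 3 resting libraries (NoTumor-NoCD40) of 12 were used, and each label gives the group. Per the labels' protocols, the RNA came from an RNeasy Plus Micro kit (Qiagen) and a strand-keeping kit, NEBNext Ultra II Directional, gave the libraries. The submitters' processing notes name Salmon and the mm10 build, while the deposited counts and TPM carry sailfish in their names. The quantifier is thus uncertain, and the annotation release is not given in the sources used here. The authors deposited expected counts per transcript (estimated read counts, not normalized) and TPM per transcript, scaled by transcript length and to 1000000 per library. Here the 136288 transcripts were summed to 53458 genes with GENCODE M21 (GRCm38), leaving out 112 that matched no gene, with at most 0.0322% of the counts of these libraries.

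Genes at 1 TPM in every library were called expressed. Fixed-length TPM is the gene's expected count over a fixed length, scaled to 1000000, a scale chosen after seeing the data. The length is that of its longest protein-coding transcript, or of its longest transcript where it has none. Genes were taken from 67 lists (1484 measured genes, 6 symbols not measured), and members and lists were chosen with earlier results of these data known. Genes to name were drawn from the 4 markers, the 25 protein-coding genes with the highest mean TPM outside ribosomal protein and mitochondrially encoded genes, up to 6 of the highest and up to 8 below 1 TPM in each list, the 12 largest and 6 smallest spreads at a mean of at least 50 TPM, and compared isoenzymes or paralogs; any other gene was chosen after its values were seen. Spread is the SD of log2(TPM + 1). The common dispersion was fitted to rounded expected counts with edgeR 4.0.16 (R 4.3.3, filterByExpr with a minimum count of 10), after a test on simulated data, and with DESeq2 1.42.0 as an alternative. Pseudogenes were aligned with BLAST 2.17.0, and tables were made with Python 3.11.15 and pandas 2.3.3. No groups were compared and no p-value was computed. Intervals for a count of 0 cover counting error only.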

Additional observations from a re-analysis of the deposited data

How the results depend on the processing

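No paired analysis was made because the libraries used form a single group, and no result here comes from a test or compares groups. The labels give no replicate numbers. With a threshold of 5 TPM in place of 1 TPM, 6878 genes and 35 markers of other cells were expressed, against 10537 and 61; without each library in turn, the counts ran from 10781 to 11081 and from 63 to 64. As percent of counts, the shares of ribosomal protein, mitochondrially encoded, processed pseudogene and MHC class II genes were 8.23%, 4.19%, 3.32% and 3.88%, and by fixed length 14.8%, 7.83%, 11.7% and 5.03%. The biological coefficient of variation common to all genes stood at 27.4% by edgeR, 63.4% without its filter on low counts, 24.1% to 29.9% without each library in turn and 17.2% as DESeq2's median gene-wise value. Genes with a 4-fold range numbered 494 by TPM, 86 by fixed length, 47 over protein-coding transcripts only, and 1185 with a 2-fold range. Library 1, 2 or 3 was the furthest for 456, 269 and 460 genes at 2-fold, for 41, 22 and 23 by fixed length and for 23, 8 and 16 over protein-coding transcripts. Fixed-length and protein-coding levels were added after seeing the data, and the causes of these shifts were not tested. Over all lists, between 813 and 1131 members were expressed under the alternatives, against 1019. By fixed length, a scale typically 1.72 times TPM, the mean moved by more than 1 SD for 1112 listed or named genes and by less for 378. TPM keeps no depth, levels of genes with near-identical copies are uncertain, and 3 libraries give an imprecise SD.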

Other observations

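Genes outside the lists were also abundant in the resting libraries, and the following were chosen after their values were seen. Crip1, a small LIM protein, had 1782, 1498 and 1198 TPM, and Ptma, prothymosin alpha, had 988, 1137 and 999.8 TPM. Plbd1, a lysosomal phospholipase-like protein, had 567, 825 and 807 TPM and Mpeg1, the pore-forming perforin-2 of phagocytes, 509, 770.5 and 668 TPM. Epsti1, an interferon-inducible gene, had 1358, 829.7 and 480.4 TPM and was highest in library 1 and lowest in library 3, the order of the maturation genes. Among lincRNA genes AW112010 had 590.03, 382 and 234 TPM in the same order. Gm48275 had 424, 349 and 493 TPM and Malat1, a nuclear RNA, 164, 63.9 and 173 TPM, lowest in library 2. By fixed length Gm48275 had 184 on average, below AW112010 with 632 and Malat1 with 306.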
